A study of Mus musculus with 12 samples.

Results

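The slow-fibre genes described here were Tnnc1, Tnnt1, Tnni1, Myh7, Myl2, Myl3, Atp2a2, Tpm3 and Csrp3, which encode contractile, calcium-handling and Z-disc proteins of slow skeletal muscle fibres. They were taken by gene name from the non-control probes of 12 scanner files. Tnnc1 and Tnnt1 had been chosen by their rise in incised skin, taken here as the rise under PBS. The set held 9 of 20457 genes tested and 13 of 27122 probes kept, and all 13 probes passed the filter on dim signals. All mice were male C57BL/6 animals of about 8 weeks. Incised skin, which carried a sutured wound of 1 cm, was injected into the dermis 72 h after wounding with PBS (3 mice) or with 100 nmol of a mimic of miR-29b (3 mice), a microRNA known for silencing collagen genes. Intact skin was injected with PBS (3 mice) or with 100 nmol of antimiR-29, an inhibitor of that microRNA (3 mice). All skin was taken 24 h after the injection, so every group, the PBS groups included, had received an injection.

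Skeletal muscle contracts when calcium binds troponin C, which then releases the hold of troponin I on actin, while troponin T ties both to tropomyosin on the thin filament. Slow and fast fibres use different genes for these proteins and for the myosin heavy and light chains, and slow fibres share several of theirs with the heart. Developing and regenerating fibres also transiently use slow and cardiac forms. Mouse skin carries a thin sheet of mostly fast muscle, the panniculus carnosus, below the dermis and fat.

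Each array measured skin RNA in the Cy5 dye against 1 universal mouse reference RNA in the Cy3 dye. A level below is the log2 ratio of skin over reference, so a difference of 1 between groups is a doubling of that ratio. An offset entered this ratio during background correction, and folds differed between ways of processing, so they are not exact folds of RNA. Levels are compared for 1 probe at a time. Well above background were 65.6 to 73.8% of probes per array, no probe was saturated, and the median Cy5 signal was 3.35 to 4.55 times its background. All 7 skeletal muscle markers, 8 keratinocyte markers and 8 fibroblast markers were well above background on all 12 arrays. Of 6 cardiac markers, 4 were. Intact PBS array 3 stood apart, with a median correlation of 0.921 to the other arrays of its group against 0.940 or more for the remaining 11. The arrays lay on 3 slides. All incised PBS arrays shared slide 1 with mimic array 1, and all antimiR arrays shared slide 3 with intact PBS array 3. Slide 2, with mimic arrays 2 and 3 beside intact PBS arrays 1 and 2, was the only one with both incised and intact skin.

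The probes are shown first because they set which transcripts were read. The 60-base probes of Tnnc1 (slow and cardiac troponin C), Tnni1 (slow troponin I) and Csrp3 (muscle LIM protein of the Z-disc) each aligned across an intron, so that they match spliced RNA. On the mm9 build given in the scanner files they lie at chr14:32023360-32023776 on the plus strand, chr1:137705328-137706203 on the plus strand and chr7:56086063-56087977 on the minus strand. Their sequences, 5′ to 3′, are as follows.
Tnnc1: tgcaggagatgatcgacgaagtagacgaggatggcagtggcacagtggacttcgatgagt
Tnni1: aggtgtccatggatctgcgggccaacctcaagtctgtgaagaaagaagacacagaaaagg
Csrp3: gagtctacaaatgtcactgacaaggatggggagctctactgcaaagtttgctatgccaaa

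Tnnt1 (slow troponin T) was read by a pair of probes at chr7:4456265-4456324 and chr7:4456172-4456231 on the minus strand, which start 93 bases apart. The first holds the letters AATAAA and the second ATTAAA, both known as forms of the polyadenylation signal. Myh7 (slow and cardiac myosin heavy chain) was read at chr14:55589581-55589640 on the minus strand. Myl2 and Myl3 (slow and ventricular myosin light chains) were read on the plus strand at chr5:122556732-122556791 and chr9:110672238-110672297. Atp2a2 (the SERCA2 calcium pump, whose forms are also made outside muscle) had a brighter probe at chr5:122903704-122903763 and a dimmer one at chr5:122910660-122910719, both on the minus strand.

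Tpm3 encodes slow-muscle alpha-tropomyosin and also cytoskeletal tropomyosins. Its 3 probes carry names of different transcript variants, and which of them reads the slow-muscle form was not determined. The brightest, at chr3:89904428-89904487, is named for variant 3. It stands for Tpm3 in the counts below, which thus hold a gene not shown to be read in its slow-muscle form. The dimmer probes, at chr3:89892985-89893044 (variant 4) and chr3:89877669-89877728 (variant 1), are printed because they name the variants read.
Tpm3 variant 4: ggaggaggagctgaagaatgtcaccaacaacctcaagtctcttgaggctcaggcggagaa
Tpm3 variant 1: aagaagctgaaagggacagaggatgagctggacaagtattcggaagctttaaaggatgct

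Tnnc1 stood at 2.80, 3.23 and 2.23 on the 3 incised PBS arrays and at 2.27, 2.33 and 1.89 on the 3 mimic arrays. In intact skin it stood at -0.78, -0.68 and -0.20 under PBS and at 0.35, -0.65 and -0.79 under antimiR-29. Every incised array was thus above every intact array. The group means were 2.75 ± 0.50 (SD, n = 3) for incised PBS, 2.16 ± 0.24 for mimic, -0.37 ± 0.62 for antimiR and -0.55 ± 0.31 for intact PBS. The incised groups overlapped each other, and so did the intact groups.

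Tnni1 was not one of the genes picked for their rise, though the set was chosen with earlier results of these data known. Tnni1 showed the same split. Its levels were 3.77, 3.95 and 3.46 in incised PBS skin and 3.06, 3.20 and 2.64 in mimic skin. They were 0.60, 0.79 and 0.85 in intact PBS skin and 0.95, 0.04 and 0.23 in antimiR skin. All 6 incised arrays were above all 6 intact arrays, and the incised PBS arrays were above the mimic arrays without overlap. AntimiR array 1, the highest intact array for Tnnc1, was the highest intact array here too.

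Tnnt1 varied most in intact skin. Its brighter probe read 3.26, 3.25 and 2.54 in incised PBS skin and 2.35, 2.32 and 1.69 in mimic skin. It read 0.49, 0.37 and -1.07 in intact PBS skin and 1.27, -1.10 and -1.25 in antimiR skin. The lowest incised array was still above the highest intact one. Within intact skin, intact PBS array 3 and antimiR arrays 2 and 3 were low and antimiR array 1 was high, and the other Tnnt1 probe gave the same pattern, with -1.49 on intact PBS array 3 and 0.83, -1.25 and -1.13 on the antimiR arrays. The group SDs were 0.87 and 1.42 in intact skin against 0.42 and 0.37 in incised skin.

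Myh7 followed the troponins over a smaller range. It stood at 0.70, 1.45 and 0.65 in incised PBS skin, at 0.40, 0.48 and 0.31 in mimic skin, at -0.86, -0.69 and -0.69 in intact PBS skin and at -0.55, -0.68 and -0.83 in antimiR skin. Again no intact array reached an incised one. Over the 12 arrays Tnnc1 correlated with Tnni1 at r = 0.985, with Myh7 at 0.974 and with Tnnt1 at 0.920, as a description, since the arrays share groups and slides. After group means were subtracted the same r values were 0.912, 0.720 and 0.565.

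The light chains behaved otherwise. Myl2 stood at 0.81, 0.70 and 1.78 in incised PBS skin, with incised PBS array 3 far above the rest. It stood at 0.16, 0.39 and 0.46 in mimic skin, at 0.29, 0.26 and 0.07 in intact PBS skin and at 0.69, 0.05 and 0.06 in antimiR skin, and it was not well above background on intact PBS array 3. Myl3 stood at 0.89, 1.15 and 1.1 in incised PBS skin, above all other arrays. Its levels were 0.17, 0.27 and 0.62 in mimic skin, 0.50, 0.55 and 0.56 in intact PBS skin and 0.17, 0.27 and 0.24 in antimiR skin, so mimic skin overlapped both intact groups.

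The brightest Tpm3 probe stood at 0.50, 0.52 and 0.57 in incised PBS skin and at 0.74, 1.02 and 0.87 in mimic skin, and was thus higher in mimic skin without overlap. It stood at 0.20, 0.27 and -0.24 in intact PBS skin and at -0.06 and 0.08 in antimiR skin, where the spot on array 3 was marked an outlier and left out. The variant 4 probe also separated all incised arrays (0.40 to 0.65) from all intact ones (-0.51 to 0.12). The variant 1 probe was well above background on 6 of 12 arrays and on no antimiR array, and ranged from -0.15 to 0.41.

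The brighter probe of Atp2a2 and the probe of Csrp3 did not separate incised from intact skin. The brighter Atp2a2 probe ranged from 1.42 to 1.99 in incised PBS skin, from 1.12 to 1.39 in mimic skin, from 1.21 to 1.86 in intact PBS skin and from 1.18 to 1.34 in antimiR skin. Csrp3 was far above the reference in every group, at 4.99, 4.90 and 4.87 in incised PBS skin, 4.79, 4.90 and 4.72 in mimic skin, 5.26, 5.12 and 5.28 in intact PBS skin and 5.49, 5.05 and 4.53 in antimiR skin. These ratios lay close together, but the brightness behind them did not, as described further on.

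**Figure D1:**
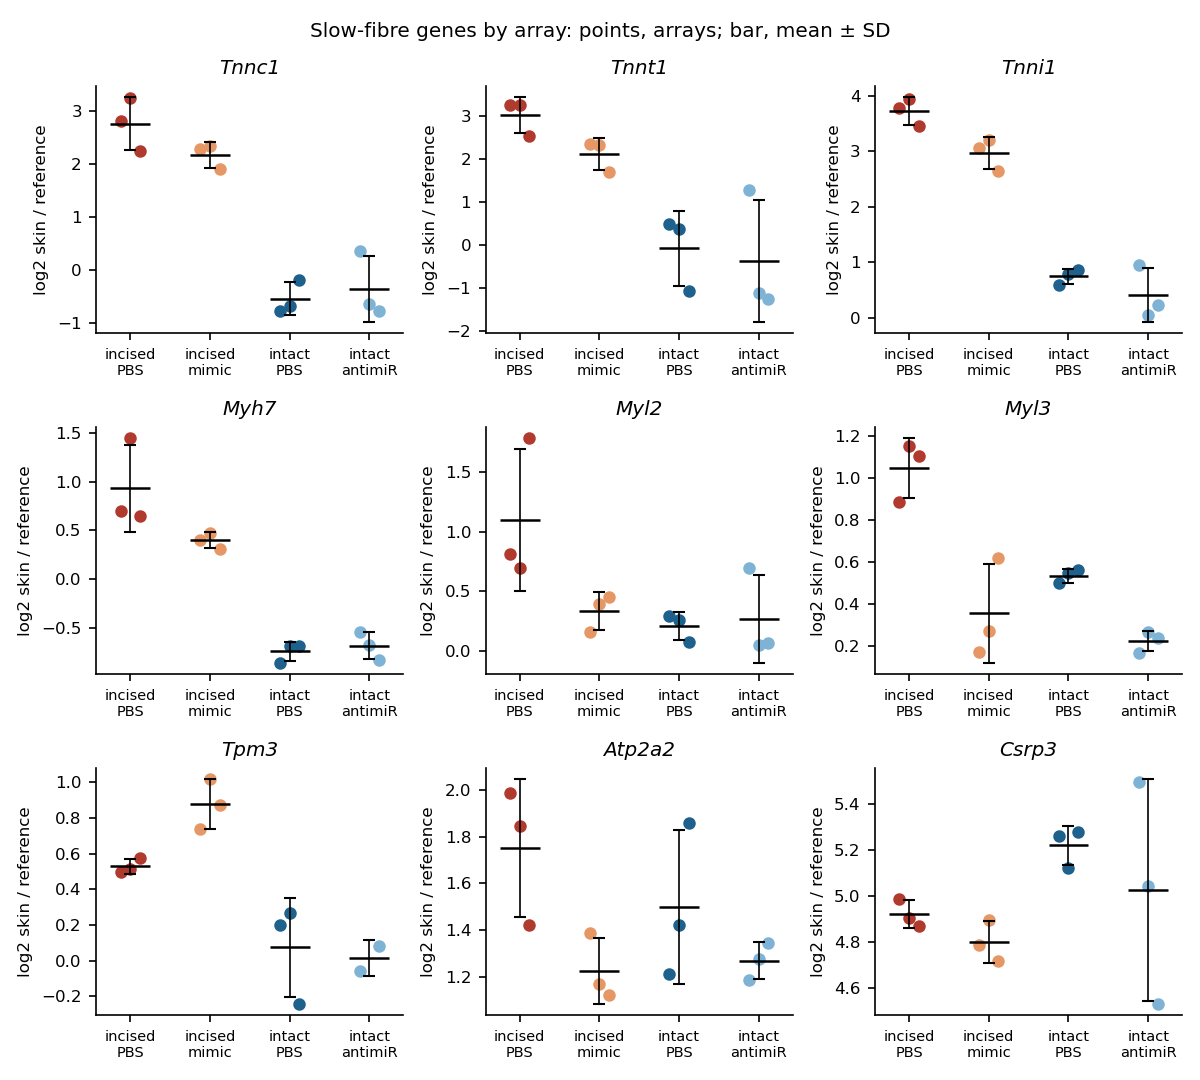
Log2 ratio of skin over reference (vertical axes, scaled for each gene) for the brightest probe of the 9 slow-fibre genes in the 4 groups (horizontal axes). Points are arrays and bars are means ± SD. Tnnc1, Tnnt1, Tnni1, Myh7 and Tpm3 separate all incised from all intact arrays, and Myl2 and Myl3 are highest in incised PBS skin. Tnnc1 and Tnnt1 were chosen for their rise in incised skin, and the share of all genes that separate all these arrays was not computed.

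The first comparison asked how incised skin differed from intact skin under PBS. Tnnc1 was 9.90-fold higher (3.31 ± 0.32 on the log2 scale, SE) and Tnnt1 8.49-fold higher (3.09 ± 0.62), which is a description only because this comparison chose them. Of the other 7 genes, which were chosen with earlier results of these data known, 5 rose and 0 fell. Of all genes 15.4% were called in either direction and 9.87% were called higher. A gene was called when limma's Benjamini-Hochberg adjusted p was under 0.05. Tnni1 rose by 2.98 ± 0.23 (7.90-fold, adjusted p = 0.00020) and Myh7 by 1.68 ± 0.18 (3.20-fold, adjusted p = 0.00049). Smaller rises were called for Myl3 (0.51 ± 0.11, adjusted p = 0.015), Myl2 (0.89 ± 0.26, adjusted p = 0.044) and Tpm3 (0.45 ± 0.13, adjusted p = 0.046). Atp2a2 differed by 0.25 ± 0.18 (adjusted p = 0.35) and Csrp3 by -0.30 ± 0.19 (adjusted p = 0.30). The groups did not overlap for 6 of the 7 genes, 5 of them higher, against 35.2% of all genes without overlap in either direction and 19.8% higher.

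The calls of Myl2 and Tpm3 lay near the threshold. Each was lost in 10 of the 12 refits that left out 1 array: Myl2 was kept only without incised PBS array 2 or antimiR array 1, and Tpm3 only without intact PBS array 2 or antimiR array 3. Myl3 was lost without incised PBS array 2 (adjusted p = 0.056) or array 3 (adjusted p = 0.053) and on Cy5 alone (adjusted p = 0.054). On Cy5 alone Myl2 kept its call (1.14, adjusted p = 0.023) and Tpm3 lost it (0.59, adjusted p = 0.14). Tnni1 and Myh7 kept their calls in every refit of that kind and in 10 of 11 other settings. No slide held both incised and intact PBS arrays, so slide and incision cannot be told apart in this comparison. With slide as a fixed block the difference runs through the mimic arrays, of which only array 1 lay on slide 1. That fit called 11 genes in all. In it Tnni1 rose by 2.89 ± 0.46 (adjusted p = 0.088) and Myh7 by 1.70 ± 0.37 (adjusted p = 0.15). With that block Tnnt1 differed by 2.24. With the program's processed signals Tnnc1 differed by 4.08 and Myh7 by 2.50, against 3.31 and 1.68 as given above. The folds thus depend on the processing, and the part of the offset in this gap was not tested.

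The other comparison of incised with intact skin used the 6 arrays outside the PBS comparison, mimic skin against antimiR skin. It differs in the oligonucleotide as well as in the wound, and incision, oligonucleotide and slide cannot be told apart within it. Whether mimic arrays also entered the choice of Tnnc1 and Tnnt1 is not stated. If they did, the results of these genes here are not independent of that choice. Here 5 of 9 genes were higher and 0 lower, beside 23.9% of all genes called in either direction and 13% called higher. Tnnc1 was higher by 2.53 ± 0.32 (5.77-fold, adjusted p = 0.00047), Tnni1 by 2.56 ± 0.23 (5.88-fold, adjusted p = 6.6e-05) and Tnnt1 by 2.48 ± 0.62 (5.58-fold, adjusted p = 0.016). Myh7 was higher by 1.08 ± 0.18 (2.12-fold, adjusted p = 0.0023) and Tpm3 by 0.86 ± 0.15 (1.82-fold, adjusted p = 0.0034). The groups did not overlap for these 5 genes, beside 45% of all genes without overlap in either direction and 22.7% higher.

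Myl2 differed by 0.07 ± 0.26 (adjusted p = 0.88), Myl3 by 0.13 ± 0.11 (adjusted p = 0.45), Atp2a2 by -0.04 ± 0.18 (adjusted p = 0.89) and Csrp3 by -0.22 ± 0.19 (adjusted p = 0.42). The call of Tnnt1 was lost without mimic array 1, mimic array 2, antimiR array 2 or antimiR array 3, with adjusted p from 0.053 to 0.064, and without antimiR array 1 the difference was 3.30. With the program's processed signals Tnnc1 differed by 3.36 and Myh7 by 1.89. No slide held both mimic and antimiR arrays, so with slide as a fixed block the difference runs through the intact PBS arrays, and it is a description for Tnnc1 (3.01 ± 0.61) and Tnnt1 (0.86 ± 1.1). With that block Tnni1 stayed called (2.67 ± 0.46, adjusted p = 0.020), while Myh7 (1.17 ± 0.37, adjusted p = 0.099) and Tpm3 (0.46 ± 0.15, adjusted p = 0.12) did not. Tpm3 was not called on Cy5 alone either (0.78, adjusted p = 0.063), nor in the authors' deposited table (0.65, adjusted p = 0.072).

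Within slide 2, which held 2 mimic and 2 intact PBS arrays, the incised arrays were higher by 2.84 for Tnnc1, 2.22 for Tnni1, 1.57 for Tnnt1, 1.17 for Myh7 and 0.71 for Tpm3. For each of these 5 genes, and for Myl2, the lower incised array was above the higher intact one. For Atp2a2 and Csrp3 the higher incised array was below the lower intact one. The share of all genes that separate in this way on slide 2 was not computed. The difference was 0.15 for Myl2, -0.08 for Myl3, -0.17 for Atp2a2 and -0.38 for Csrp3. These values have no test, and the intact arrays are ones on which Tnnc1 and Tnnt1 were chosen.

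For Tpm3 the variant 4 probe was higher in incised skin by 0.46 ± 0.14 under PBS (adjusted p = 0.047 over all kept probes) and by 0.69 ± 0.14 in mimic against antimiR skin (adjusted p = 0.0052). The variant 1 probe was well above background on 1 of 3 intact PBS arrays and on 0 of 3 antimiR arrays, so no difference is read from it. The dimmer Atp2a2 probe differed by 0.17 ± 0.11 under PBS and by 0.31 ± 0.11 in mimic against antimiR skin (adjusted p = 0.056), without overlap in the latter. The Tnnt1 probes stood close together, at 3.09 and 3.37 under PBS and 2.48 and 2.47 in mimic against antimiR skin.

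**Figure D2:**
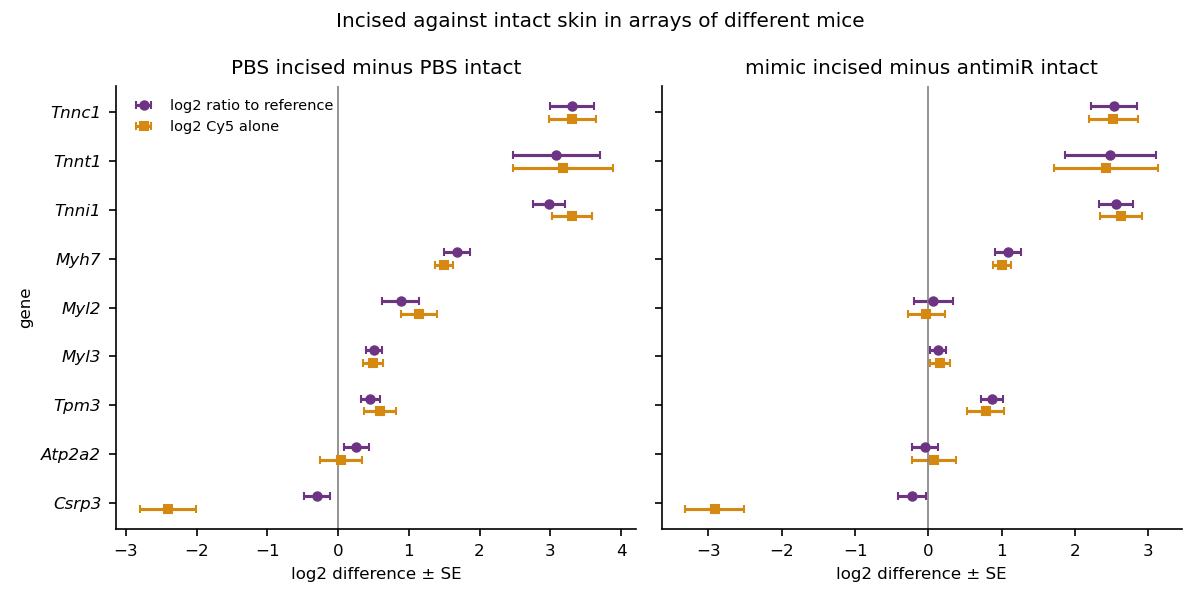
Log2 difference ± SE (horizontal axis) of each slow-fibre gene between incised and intact skin, for PBS mice on the left and for mimic against antimiR mice on the right. Circles are ratios to the reference and squares are Cy5 brightness alone, quantile normalized. The troponins and Myh7 lie well above 0 on both scales in both panels, and Csrp3 lies near 0 as a ratio and at -2.41 and -2.91 on Cy5 alone.

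Csrp3 changed with the scale. Its Cy5 brightness, on a log2 scale, was 13.30, 12.83 and 12.37 in incised PBS skin and 12.93, 12.91 and 12.74 in mimic skin. It was 15.65, 14.66 and 15.41 in intact PBS skin and 16.74, 15.50 and 15.09 in antimiR skin. On Cy5 alone Csrp3 was thus lower in incised skin without overlap, with a difference of -2.41 ± 0.40 under PBS (5.30-fold, adjusted p = 0.0072) and -2.91 ± 0.40 in mimic against antimiR skin (7.54-fold, adjusted p = 0.0014). On that scale 8.5% and 16.8% of all genes were called, 3.3% and 8.92% lower. The ratio gave -0.30 and -0.22 and no call in those comparisons, though without antimiR array 3 the second became -0.47 and was called (adjusted p = 0.037).

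The dyes moved together for this probe. Cy3, which carried the same reference RNA on every array, ran from 7.66 to 11.40 for Csrp3, a range of 3.74, and it correlated with Cy5 at r = 0.996 over the 12 arrays. For Tnnt1 the Cy3 range was 0.91 and the Cy5 range 4.77, and for Tnnc1 they were 0.71 and 4.10. For Tnni1 they were 1.02 and 4.39. Over these smaller ranges Cy3 also followed Cy5, at r = 0.805 for Tnnt1, 0.858 for Tnnc1 and 0.926 for Tnni1. The mean Cy3 of Tnni1 was 7.77 in incised PBS and 7.43 in mimic skin, against 7.22 in intact PBS and 6.98 in antimiR skin. Over all 27122 kept probes the median Cy3 range was 0.46 and the median r of Cy3 with Cy5 was 0.351. Over the 262 probes with a mean log2 ratio above 4.5 the medians were 1.05 and 0.935. Why Cy3 followed Cy5 was not tested, and whether Csrp3 fell in incised skin depends on which scale is read.

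On Cy5 alone the troponins and Myh7 kept their direction. Under PBS the differences were 3.31 for Tnnc1, 3.17 for Tnnt1, 3.31 for Tnni1 (adjusted p = 0.00063) and 1.50 for Myh7 (adjusted p = 0.00063). For mimic against antimiR skin the values were 2.52, 2.43, 2.62 and 1.00, and all 4 were called. Whether mimic arrays entered the choice of Tnnc1 and Tnnt1 is not stated, so the calls of these genes may not be independent of it. On this scale 5.19% of all genes were called higher under PBS and 7.91% in mimic against antimiR skin.

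**Figure D3:**
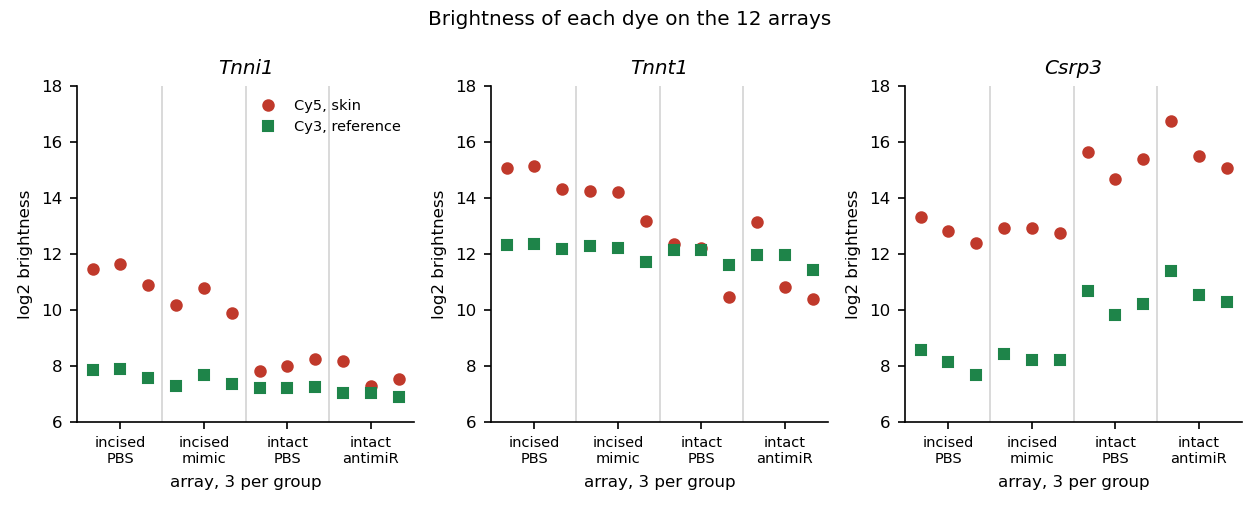
Log2 brightness of Cy5 (skin, circles, quantile normalized) and Cy3 (reference, squares) on the 12 arrays (horizontal axis, 3 per group) for Tnni1, Tnnt1 and Csrp3. For Tnni1 and Tnnt1 Cy5 is higher in incised skin, and Cy3 ranges over 1.02 and 0.91 and follows Cy5 (r = 0.926 and 0.805). For Csrp3 both dyes are lower in incised skin.

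The mimic was compared with PBS in incised skin, and these incised PBS arrays also entered the first comparison, so the values are given side by side only. Tnnc1 and Tnnt1 were chosen for being high on incised PBS arrays, so their differences here are not independent of that choice. Neither was called. Of 9 genes, 1 fell and 0 rose, beside 0.591% of all genes called in either direction and 0.386% called lower. On Cy5 alone 0 were called, beside 0.22% of all genes, with adjusted p from 0.14 to 0.99. That gene was Myl3, lower by 0.69 ± 0.11 (1.61-fold, adjusted p = 0.033). Its call was lost on Cy5 alone (adjusted p = 0.14) and in 7 of 12 refits without 1 array, those without any of incised PBS arrays 1 to 3, mimic arrays 1 or 2, intact PBS array 1 or antimiR array 2. Within slide 1, mimic array 1 was 0.87 below the mean of the 3 PBS arrays for Myl3.

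The difference was negative for 8 of 9 genes, the chosen Tnnc1 and Tnnt1 among them, with adjusted p from 0.17 to 0.86 for those not called. Tnnt1 differed by -0.90 ± 0.62, Tnni1 by -0.76 ± 0.23, Myl2 by -0.76 ± 0.26, Tnnc1 by -0.59 ± 0.32, Myh7 by -0.54 ± 0.18, Atp2a2 by -0.53 ± 0.18 and Csrp3 by -0.12 ± 0.19, while Tpm3 differed by 0.35 ± 0.13. The groups did not overlap for 7 of 9 genes, 6 of them lower and Tnnt1 among these, beside 24.2% of all genes in either direction and 11.7% lower. At an unadjusted p under 0.05 there were 6 genes, neither Tnnc1 nor Tnnt1 among them, beside 12.5% of all genes.

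AntimiR-29 was compared with PBS in intact skin, whose PBS arrays are likewise shared with the first comparison. The differences of Tnnc1 and Tnnt1 here are thus not independent of their choice either. None of the 9 genes was called by limma, beside 9.72% of all genes, and 1 gene (Myl3, -0.31 ± 0.11) had an unadjusted p under 0.05, beside 24.1% of all genes. On Cy5 alone 0 were called as well, beside 5.87% of all genes. The differences ran from -0.34 ± 0.23 for Tnni1 to 0.19 ± 0.32 for Tnnc1, 3 of 9 were positive, and the groups did not overlap for 1 of 9 genes, Myl3, beside 25.8% of all genes. For Tnnt1, whose antimiR arrays ran from -1.25 to 1.27, the difference was -0.29 ± 0.62, and without antimiR array 1 it was -1.11 (adjusted p = 0.17).

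The incision difference in mimic and antimiR skin minus that in PBS skin was tested as an interaction, which is also the mimic effect minus the antimiR effect. It ran from -0.82 (Myl2) to 0.41 (Tpm3), and it subtracts the PBS difference that chose Tnnc1 and Tnnt1, so these have no test in it. Of the other 7 genes limma called 0, beside 1.09% of all genes. At an unadjusted p under 0.05 there were 3, Myh7 (-0.60 ± 0.25), Myl3 (-0.38 ± 0.16) and Myl2 (-0.82 ± 0.37), beside 14.1% of all genes. On Cy5 alone 0 of the 7 were called, beside 0.372% of all genes.

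Other muscle genes were read from lists, which were also chosen with earlier results of these data known. Their counts can be set against the same shares of all genes. Of 9 cardiac and developmental sarcomere genes, which include forms used by embryonic and regenerating fibres, 5 rose and 0 fell under PBS, with a median difference of 0.49. Actc1 (cardiac actin) rose by 2.37 ± 0.30, Tnnt2 (cardiac troponin T) by 2.28 ± 0.41, Myl4 (an atrial and embryonic light chain) by 2.23 ± 0.50 and Myh3 (embryonic myosin) by 1.81 ± 0.37, with adjusted p from 0.0012 to 0.014. Myh8 (perinatal myosin) rose by 0.49 ± 0.12 (adjusted p = 0.020), and on Cy5 alone it was not called. The count in mimic against antimiR skin was again 5 of 9 higher and 0 lower, with Myh3 at 2.72 ± 0.37 and Actc1 at 1.46 ± 0.30. Myh8 stood there at 0.42 ± 0.12 as a ratio but at -0.43 on Cy5 alone, where 4 of the 9 genes were higher in each comparison.

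Myh3 stood at 5.42, 5.41 and 5.26 in incised PBS skin and at 3.19, 4.09 and 3.39 in intact PBS skin, and Tnnt2 at 2.86, 3.08 and 2.54 against 0.23, -0.19 and 1.60. In antimiR skin Myh3 stood at 3.17, 1.35 and 2.12 and Tnnt2 at -0.59, -0.42 and 0.52. Of the heart's own markers on the cardiac marker list (Nppa, Nppb, Tnni3, Myh6, Myl7 and Mybpc3), 0 of 6 were called in either comparison. Their medians were 0.04 under PBS and 0.16 in mimic against antimiR skin. Myh6 was well above background on 8 arrays and Myl7 on 5. Under antimiR-29 against PBS in intact skin 2 of the 6 were higher and 0 lower, beside 9.72% of all genes called. On Cy5 alone 2 were higher as well, beside 5.87%. The comparison of mimic with antimiR skin holds this difference too. On the regeneration and denervation list 2 of 14 measured genes rose under PBS and 0 fell. They were Mymk, a membrane protein needed for myoblast fusion (2.00 ± 0.21, adjusted p = 0.00048), and Ncam1, a cell adhesion molecule of regenerating and denervated fibres (0.89 ± 0.16, adjusted p = 0.0062). In mimic against antimiR skin 6 of 14 were higher, Mymk (1.89 ± 0.21), Ncam1 (0.62 ± 0.16) and Runx1 (0.73 ± 0.23), a transcription factor induced by denervation, among them. On Cy5 alone 1 of 14 was higher there, Mymk. Under antimiR-29 against PBS in intact skin this list had a median of -0.66, with 12 of 14 differences negative, 2 called lower and 0 higher. The comparison of mimic with antimiR skin thus holds that shift as well as the incision. Intact PBS array 3 had the highest score of this list among the 12 arrays, 0.71, while intact PBS arrays 1 and 2 stood at 0.0041 and -0.52 and incised skin at 0.032 to 0.48. Without that array 3 of 14 rose under PBS, Runx1 being the third.

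Fast-fibre genes did not rise as a group. Under PBS 2 of 13 rose by small amounts, Myh4 (fast IIb myosin, 0.46 ± 0.13) and Pvalb (parvalbumin, a calcium buffer of fast fibres, 0.39 ± 0.10), and 0 fell, with a median of 0.08. On Cy5 alone neither was called, Pvalb stood at -0.73, and the list's median was -0.34. Of the 13, in mimic against antimiR skin, 1 was higher (Myh4, 0.49 ± 0.13) and 3 were lower, among them Mylpf (fast regulatory light chain, -0.91 ± 0.22) and Tnni2 (fast troponin I, -0.55 ± 0.15). The median was -0.08 as a ratio and -0.95 on Cy5 alone, where 0 were higher and 6 lower. Without intact PBS array 3, 0 of 13 were called under PBS.

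Genes of both fibre types and further slow or oxidative genes went down or were not called. Of 12 sarcomere genes of both fibre types 0 were called under PBS (median -0.25), against 0 higher and 5 lower on Cy5 alone (median -1.02). In mimic against antimiR skin 6 were lower and 0 higher, with Ldb3 and Actn2, proteins of the Z-disc, at -0.88 and -0.92. Of 10 other slow or oxidative genes measured, 2 fell under PBS, the Z-disc protein gene Myoz2 (-0.85 ± 0.20, adjusted p = 0.018) and Ankrd2 (-0.69 ± 0.18, adjusted p = 0.027), and 0 rose. Their differences under PBS were mixed, 4 positive and 6 negative, with a median of -0.11. Of the 10, 4 fell in mimic against antimiR skin and 0 rose, with Mybpc1 (slow myosin binding protein C) at -0.76 ± 0.14, Myoz2 at -0.81 ± 0.20 and Ppargc1a (the PGC-1alpha coactivator of oxidative fibres) at -0.92 ± 0.19. On Cy5 alone 4 and 5 of the 10 were lower and 0 higher.

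Of 9 regulators of fibre type measured, 1 rose and 1 fell under PBS. Eya1 rose by 0.35 ± 0.10, and Vgll2, a cofactor in muscle transcription, fell by 1.67 ± 0.41 (adjusted p = 0.021), a call that was lost without intact PBS array 3. Among the 9, 3 rose and 3 fell in mimic against antimiR skin, with Nfatc1 (a calcineurin-dependent factor tied to slow fibres) at 0.82 ± 0.14, Vgll2 at -2.36 ± 0.41 and Tbx15 (a factor of glycolytic fibres) at -1.11 ± 0.14. Under antimiR-29 in intact skin 3 regulators fell, Mef2c by 1.23 ± 0.12, Sox6, a repressor of slow genes, by 0.97 ± 0.14 and Nfatc1 by 0.71 ± 0.14, while 0 of the 9 slow-fibre genes were called there.

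Under the mimic the fast genes lay below PBS for 13 of 13, with a median of -0.62, and 3 were called lower, Pvalb (-0.65 ± 0.10), Myh1 (-0.56 ± 0.09) and Atp2a1 (-0.89 ± 0.17), against 2 on Cy5 alone. The median of the 9 slow-fibre genes in that comparison was -0.59, that of 10 other slow or oxidative genes -0.48 with 1 called lower (Mybpc1, -0.91 ± 0.14, not called on Cy5 alone), and that of all genes -0.0012. The 12 sarcomere genes of both types had a median of -0.71 and 0 called.

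**Figure D4:**
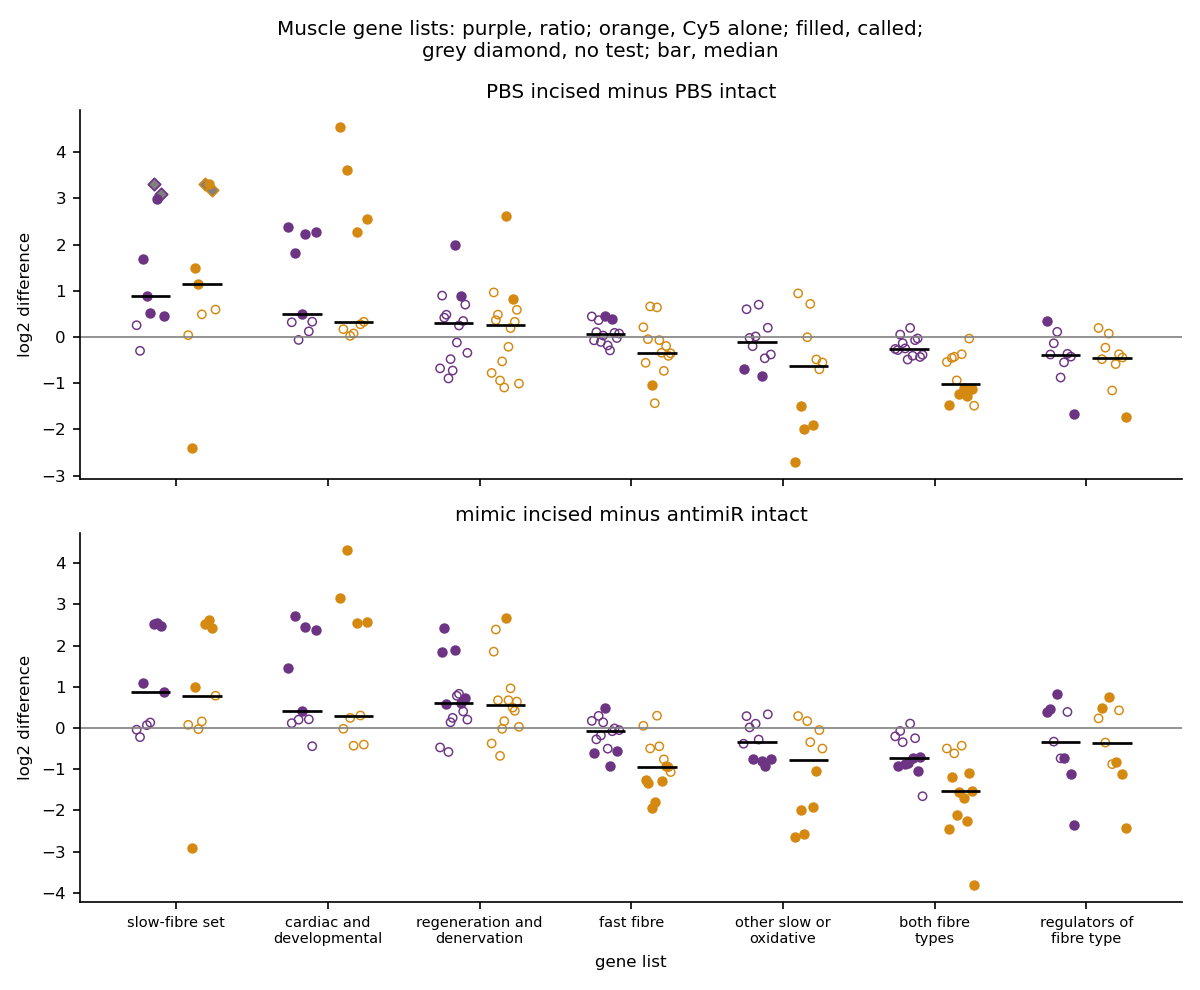
Log2 difference (vertical axis) of each measured gene of 7 muscle lists (horizontal axis) between incised and intact skin, under PBS above and for mimic against antimiR skin below. Purple points are ratios and orange points Cy5 alone, filled points are called, grey diamonds are Tnnc1 and Tnnt1, which have no test there, and bars are medians. The slow-fibre set and the cardiac and developmental list hold the points above 2 under PBS, apart from Mymk on Cy5 alone, and the list of both fibre types lies mostly below 0.

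Skin samples hold varying amounts of muscle, and in bulk RNA fewer cells of a type and less RNA per cell cannot be told apart. The score of the 7 skeletal muscle markers, the median of their centred log2 ratios, ran from 0.15 to 0.23 in incised PBS skin, -0.52 to -0.16 in mimic skin, 0.25 to 0.44 in intact PBS skin and -0.23 to 0.11 in antimiR skin. Intact PBS skin was thus the group of highest marker score. No marker of this list was called under PBS, and 2 of 7 were lower in mimic against antimiR skin. On Cy5 alone 3 and 4 of 7 were lower.

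Inflammatory markers were higher in incised skin and, in part, under antimiR-29. Of 8 macrophage markers 6 were higher under PBS and 4 in mimic against antimiR skin, and the score ran from 0.28 to 0.45 in incised PBS skin, 0.70 to 0.81 in mimic skin, -1.62 to -0.41 in intact PBS skin and -0.74 to 0.16 in antimiR skin. Of 8 neutrophil markers 2 and 5 were higher, and the score ran from 0.12 to 0.71 in incised skin and from -0.72 to -0.09 in intact skin. Macrophage and neutrophil scores were higher in mimic than in incised PBS skin. Of the markers, 0 of 8 and 1 of 8 were called higher there, with median differences of 0.17 and 0.04. Under antimiR-29 in intact skin 4 of 8 macrophage markers (median 1.04) and 2 of 8 neutrophil markers were higher than under PBS. Of 8 fibroblast markers 1 was higher under incision with PBS, 2 were lower under the mimic (median -1.05) and 4 were lower in mimic against antimiR skin (median -0.99). The score of 6 wound-edge keratinocyte markers ran from 0.33 to 0.87 in incised PBS skin and from 0.20 to 0.51 in mimic skin. In intact skin it stood at -0.05, 0.18 and -1.14 under PBS and at 0.14, -0.69 and -1.09 under antimiR-29. It was thus low on intact PBS array 3 and antimiR arrays 2 and 3, as Tnnt1 was. The part of these cell types in the slow-fibre values was not tested.

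Apart from the 9 slow-fibre genes, and with RIKEN, predicted and unnamed genes left out, the genes whose levels followed Tnnc1 most closely, by Pearson r over the 12 arrays among 19440 genes with a value on each, were Fbh1 (0.978), Msln (0.977), Orai3 (0.976), Neurl1b (0.974), Gal (0.971) and Mmel1 (0.968). With group means subtracted r ran from 0.436 for Gal to 0.955 for Fbh1. For Tnnt1 they were Srpx2 (0.978), Loxl3 (0.971), Klk6 (0.968), Trmt2b (0.964), Klhl28 (0.961) and Prg4 (0.957), with r from 0.798 to 0.932 after subtraction. The top genes moved far less than the troponins in some cases: Fbh1 differed by 0.31 and Trmt2b by 0.25 between incised and intact PBS skin, against 1.85 for Gal and 1.35 for Srpx2.

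Promoters of the 3 slow troponins are shown because these genes moved together. They are the 250 bases before the start in RefSeq on GRCm38.p6, at chr14:31208062-31208311 on the plus strand for Tnnc1, chr7:4515976-4516225 on the minus strand for Tnnt1 and chr1:135799171-135799420 on the plus strand for Tnni1. Capitals mark the E-box CANNTG, the core letters bound by myogenic factors such as MyoD, and the MCAT letters CATTCC on either strand, which TEAD factors bind.
Tnnc1: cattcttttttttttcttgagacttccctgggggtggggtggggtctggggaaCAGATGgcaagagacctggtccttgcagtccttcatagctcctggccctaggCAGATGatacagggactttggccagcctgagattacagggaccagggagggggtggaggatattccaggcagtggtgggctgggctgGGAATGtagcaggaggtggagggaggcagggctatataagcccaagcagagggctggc
Tnnt1: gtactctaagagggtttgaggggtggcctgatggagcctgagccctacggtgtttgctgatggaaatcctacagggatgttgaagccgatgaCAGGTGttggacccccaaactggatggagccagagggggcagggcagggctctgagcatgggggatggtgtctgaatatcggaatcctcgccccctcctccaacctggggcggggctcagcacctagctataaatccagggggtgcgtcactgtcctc
Tnni1: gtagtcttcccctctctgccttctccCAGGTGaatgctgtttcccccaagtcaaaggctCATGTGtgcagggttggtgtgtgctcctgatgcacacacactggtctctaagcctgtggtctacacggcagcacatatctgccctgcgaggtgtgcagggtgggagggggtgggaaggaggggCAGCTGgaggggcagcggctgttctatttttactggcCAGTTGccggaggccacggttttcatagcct

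The Tnnc1 window held the E-box letters at 197 and 145 bases before the start and the MCAT letters, read on the other strand, at 58 bases. The Tnnt1 window held the E-box letters at 158 bases and a TATA box, TATAAA, at 30 bases. The Tnni1 window held the E-box letters at 224, 191, 68 and 31 bases, the match at 68 bases being the form CAGCTG. Of 32817 promoter windows of this length, 66.2% held an E-box, 13% that form of it, 12.6% the MCAT letters and 12.4% the TATA box, each searched on both strands. The MEF2 site was found in 2.92% and the CArG box in 1.47%. Of the 9 genes 8 matched, with 13 entries, and none of these held a MEF2 match, while Myl3 held a CArG match at 85 bases. These are descriptions of letters in a window.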

How the data were processed

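The series held 12 arrays of mouse skin in 4 groups of 3, which the labels call biological replicates from separate mice. Per the file headers the scanner files held spot and background brightness as intensity in Cy5 (skin) and Cy3 (reference), extracted with Agilent Feature Extraction 11.5.1.1, and dyes were not swapped. A table of log2 values deposited for the whole series correlated with the ratios at 0.891 to 0.918 per array with skin over reference, although its file name gives the dyes in the other order. That table lists an exact 0 for 6.86 to 13.1% of genes.

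With limma 3.58.1 in R 4.3.3, normexp correction (offset 50) and loess within each array were applied, control spots at weight 0. Outlier spots were left out and spots averaged per probe. A named probe was kept with Cy5 well above background on at least 3 arrays and a value in every group (27122 of 39429). The brightest probe stood for each of 5304 genes with several. RefSeq names were found for 21639 kept probes. All 12 arrays entered 1 fit (lmFit, eBayes), with Benjamini-Hochberg adjustment over 20457 genes, 2-sided, called under 0.05. Depth is given as signal over background, and the number of arrays limits the precision. Cy5 alone was quantile normalized. The script was tested on simulated data.

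The genes and lists were chosen with earlier results of these data known. Named genes are the 9 slow-fibre genes, up to 3 of smallest p per list and comparison, and the 6 most like Tnnc1 and Tnnt1; some that meet this rule are not named. The listed genes Pln, Myf5 and Prox1 were below the filter. The lists share genes (the cardiac markers with the cardiac and developmental list, skeletal muscle markers with the sarcomere list). Adipocyte, endothelial, smooth muscle and wound-edge keratinocyte lists were also read: under PBS 0 of 6, 0 of 6, 1 of 8 and 1 of 6 were called, those called being higher. The keratinocyte list gave 0 of 8. Protein sequences were not used here.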

Additional observations from a re-analysis of the deposited data

How the results depend on the processing

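The alternatives were the extraction program's processed signals, Aquantile scaling, Cy5 alone, the deposited table, no filter or one requiring all 12 arrays, probe means, a fit of only the compared groups, slide as a fixed or random block, a replicate block, and each array left out. The values within slide 2 and the list counts without intact PBS array 3 were chosen after seeing the data. Under incision with PBS, 3 of the 7 tested genes in place of 5 were called with processed signals, the deposited table or no filter. The same count held with only the compared groups, the replicate block or the random slide block (consensus correlation 0.113). With the fixed slide block, which draws on the mimic arrays in this comparison, 0 were called. Under the mimic 0 in place of 1 were called on Cy5 alone, with only the compared groups and with the fixed slide block. In mimic against antimiR skin 2 in place of 5 were called with the fixed slide block, which draws on the intact PBS arrays, so its call of Tnnc1 is no test. Without 1 array the counts ran from 2 to 4, 0 to 1 and 4 to 5, and stayed at 0 for antimiR and for the interaction.

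Over all genes, incision under PBS gave 3155 calls, and 1738 on Cy5 alone, 1364 with only the compared groups, 11 with the fixed slide block and 1693 to 3082 without 1 array. Mimic against antimiR skin gave 4890, and 949 with the fixed block and 2879 to 6110 without 1 array. The mimic gave 121, and 45 on Cy5 alone, 16 in the deposited table, 438 with only the compared groups, 38 with processed signals, 0 and 59 with the fixed and random slide block, 77 with the replicate block and 1 to 246 without 1 array. AntimiR gave 1988, and 1200 on Cy5 alone, 537 with only the compared groups and 1090 to 2097 without 1 array. The interaction gave 223, and 76 on Cy5 alone, 359 in the deposited table, 369 with processed signals, 17 and 125 with the fixed and random slide block and 64 to 417 without 1 array. The cause was not tested. Samples sharing a replicate number came from different mice and their deviations correlated at -0.44 to 0.29, so the numbers do not pair them.

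Among the 9 slow-fibre genes, signs turned only for differences that were not called on the ratio. Under antimiR they were Csrp3 (0.54 on Cy5 alone), Myh7 (-0.034 with processed signals and in the deposited table, -1.5e-05 with the fixed slide block), Myl2 (-0.091 with processed signals and in the deposited table), Tnnc1 (-0.17), Tnnt1 (0.71) and Tpm3 (0.26) with the fixed slide block, and Tpm3 (0.17) on Cy5 alone. In mimic against antimiR skin they were Atp2a2 (0.075 on Cy5 alone, 0.15 in the deposited table, 0.14 by the mean over probes, 0.42 and 0.026 with the fixed and random slide block) and Myl2 (-0.029 on Cy5 alone, -0.044 with the fixed block). Csrp3 turned to 0.0084 under PBS incision with processed signals and in the deposited table, and to 0.028 under the mimic on Cy5 alone. Tpm3 turned to -0.021 under the mimic in the deposited table. Without 1 array, antimiR differences ran from -0.43 to 0.051 for Csrp3, -0.0089 to 0.13 for Myh7, -0.15 to 0.17 for Myl2, -0.17 to 0.40 for Tnnc1, -1.11 to 0.15 for Tnnt1 and -0.22 to 0.034 for Tpm3. Those of mimic against antimiR skin ran from -0.12 to 0.0088 for Atp2a2, -0.47 to 0.012 for Csrp3, -0.042 to 0.28 for Myl2 and -0.0013 to 0.22 for Myl3.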
